A study of Mus musculus with 8 samples.

Results

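The genes described here are 38 genes of cell cycle and DNA replication, chosen by symbol from textbook function and not by their values. They comprise 17 replication genes and 21 mitosis genes. Earlier results of these data were known when the genes were chosen. All 38 were found among the 21882 gene symbols of the deposited tables. Their levels were measured by RNA sequencing in embryonic mouse skin of the C57BL/6 strain in which Cyp26b1 had been disrupted. Cyp26b1 encodes an enzyme that clears retinoic acid, the vitamin A derivative that directs growth and differentiation of embryonic skin.

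There were 8 libraries in 3 comparisons. Whole skin at embryonic day (E) 16.5 came from wild-type embryos and from embryos labelled Cyp26b1-/-, a germline null, with 2 libraries a group that were pooled into 1 column of values. Dermis at E18.5 came from 1 control library labelled Cyp26b1f/+ and 1 library labelled En1cre;Cyp26b1f/-, and epidermis at E18.5 likewise. In these mutants En1cre removes the floxed allele only in cells with a history of En1 expression. The other allele is null in every cell, so mutants also carry 1 functional allele fewer outside the En1 lineage, and the labels list no Cre for the controls. The values are FPKM (fragments per length of transcript and library size), and no counts were given, so the depth is unknown. With 1 library a group there is no replicate check at E18.5, and the E16.5 p-values below measure the deposited model's error for these libraries, not a spread between animals. The labels do not say whether a library came from 1 embryo or several.

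A dividing cell first licenses its replication origins with the ORC, Cdc6 and Cdt1 proteins, which load the ring-shaped MCM helicase onto DNA. Cyclin E and its kinase, with E2F transcription factors, then open S phase, and cyclin A and cyclin B with Cdk1 carry the cell into mitosis, where Aurora and Polo kinases, kinesins and the checkpoint proteins move and separate the chromosomes. In skin these genes mark the basal layer of the epidermis and the hair matrix, and in the embryo also growing dermal cells.

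Promoters of replication genes are known for E2F sites, and those of mitosis genes for a cell cycle homology region (CHR) next to CCAAT boxes, so both were searched for in reference sequence. RefSeq promoters (GRCm38.p6, 250 bases before to 50 after the start) were found for 30 of the 38 genes. There was no entry for Mcm4, Gins1, Gins2, Ccne2, Ccna2, Aurkb, Kif20a and Tpx2. The CHR was searched as TTTGAA, the CCAAT box as CCAAT, and the E2F site as TTTCCCGC, TTTCGCGC, TTTGCCGC or TTTGGCGC, each on both strands. An E2F string was present in 6 of 13 replication promoters and in 1 of 17 mitosis promoters, that of Cdk1, beside 2.26% of all 32851 promoters. TTTGAA was present in 1 of 13 replication promoters, that of Mcm2, and in 12 of 17 mitosis promoters, beside 17.9% of all promoters. All of these 12 also held CCAAT, a pair of strings found together in 6.95% of all promoters. CCAAT alone was common, with 8 of 13 replication and 15 of 17 mitosis promoters beside 37.4% of all. Such matches describe letters only and do not show that a factor binds there.

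The last 150 bases before the start are shown for 6 genes to which the results below return: 3 replication genes with E2F strings, Cdk1 with both kinds, and a pair of mitosis genes with CHR and CCAAT. Capitals mark every match on either strand, and adjoining E2F matches in Mcm6 overlap. The sequences lie at chr8:75109359-75109508 on the plus strand (Mcm5), chr1:128359706-128359855 on the minus strand (Mcm6), chr11:98908001-98908150 on the plus strand (Cdc6), chr10:69352913-69353062 on the minus strand (Cdk1), chr4:118437344-118437493 on the minus strand (Cdc20) and chr11:99024190-99024339 on the minus strand (Top2a).
Mcm5: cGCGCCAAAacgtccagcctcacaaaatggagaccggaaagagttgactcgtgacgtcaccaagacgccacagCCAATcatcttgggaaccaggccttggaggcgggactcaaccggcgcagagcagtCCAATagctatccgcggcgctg
Mcm6: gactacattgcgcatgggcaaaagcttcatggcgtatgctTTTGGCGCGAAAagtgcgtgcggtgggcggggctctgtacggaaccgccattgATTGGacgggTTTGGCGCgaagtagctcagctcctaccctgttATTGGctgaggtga
Cdc6: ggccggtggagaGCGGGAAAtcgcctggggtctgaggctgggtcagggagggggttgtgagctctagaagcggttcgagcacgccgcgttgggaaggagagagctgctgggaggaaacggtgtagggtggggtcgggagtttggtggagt
Cdk1: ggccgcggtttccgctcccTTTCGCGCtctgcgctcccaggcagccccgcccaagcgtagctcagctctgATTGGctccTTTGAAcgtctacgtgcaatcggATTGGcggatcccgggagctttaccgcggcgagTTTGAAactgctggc
Cdc20: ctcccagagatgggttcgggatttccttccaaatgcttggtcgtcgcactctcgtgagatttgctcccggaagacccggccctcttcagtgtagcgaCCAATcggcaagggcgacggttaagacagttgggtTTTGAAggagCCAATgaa
Top2a: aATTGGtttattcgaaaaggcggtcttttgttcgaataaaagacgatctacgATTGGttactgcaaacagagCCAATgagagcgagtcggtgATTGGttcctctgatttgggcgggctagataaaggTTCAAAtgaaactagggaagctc

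Some facts of the whole tables touch every value below. The size of a difference is the log2 ratio of mutant to control after adding 1 FPKM, for genes that reached 1 FPKM in the control or the mutant column. The median gene did not sit at 0 on this scale. It was at 0.43 in E16.5 skin (14154 genes), 0.12 in dermis (13398 genes) and -0.18 in epidermis (11362 genes), so each fold is given raw and relative to the median gene of its table. The tables were normalised separately, so levels set side by side across them are a description. Cyp26b1 was not lower in the mutant columns summed over its transcripts. Of its 2 transcripts, the first stood at 19.4 FPKM in control and 14.4 FPKM in mutant skin, 48.7 and 59.7 in dermis, and 4.97 and 11.8 in epidermis. The second stood at 15.5 and 43.8 FPKM in skin, 5.42 and 42.0 in dermis, and 0 and 1.89 in epidermis. FPKM over a whole transcript do not show which exons were read, so the genotype labels could not be checked. Copies elsewhere in the genome make the values of Mcm7, Pcna, Cdc6, Ccnb1, Cdc20 and Plk1 uncertain. The closest copy is 99.3% identical for Pcna, 99.1% for Ccnb1 and 97.5% for Mcm7, but 93.5% for Plk1, 92.8% for Cdc20 and 90.1% for Cdc6. An overlapping gene on the opposite strand does the same for 8 of the 38 genes (Mcm7, Tyms, Gins2, Ccne2, Ccna2, Cdc20, Kif20a and Nusap1). In bulk tissue, fewer cells of a type and less RNA per cell cannot be told apart.

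The tissue labels were set against their markers. Krt5, a keratin of basal keratinocytes, stood at 6265 FPKM in control dermis and at 2634 FPKM in control epidermis, so the control dermis library held many keratinocyte transcripts. Endothelial markers summed to 294 FPKM in control dermis and to 6.67 FPKM in control epidermis. Hair matrix, shaft and inner root sheath markers summed to 2115 FPKM in control dermis against 245 FPKM in control epidermis. The control dermis library therefore held hair follicle transcripts besides those of dermal cells. In mutant dermis the same hair markers summed to 116 FPKM.

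All 38 genes were expressed well in E16.5 skin. The median replication gene stood at 32.1 FPKM in wild-type and 47.2 FPKM in mutant skin, and the median mitosis gene at 34.6 and 47.7 FPKM. The highest was Pcna, the sliding clamp that holds DNA polymerase on its template, with 129 FPKM in wild-type and 216 FPKM in mutant skin. Next came Birc5, the survivin subunit of the chromosomal passenger complex, with 102 and 144 FPKM. The lowest was Cdc6, the licensing factor, with 5.31 and 7.35 FPKM.

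At E18.5 the levels differed by tissue. The median replication gene stood at 30.1 FPKM in control and 39.8 FPKM in mutant dermis, and at 6.58 and 3.46 FPKM in the matching epidermis. The median mitosis gene stood at 10.6 and 25.7 FPKM in dermis and at 3.48 and 1.76 FPKM in epidermis. Summed over all 38 genes, the levels were 1404 and 2029 FPKM in skin, 1149 and 1389.98 FPKM in dermis, and 272 and 146 FPKM in epidermis. Ccne2, Bub1, Cenpe and Cenpf stayed under 1 FPKM in both epidermis columns and have no fold there.

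The order of the genes by level was nearly the same in both E16.5 columns (Spearman's rho 0.98 over 38 genes) and in both epidermis columns (0.96). It was less alike in the dermis columns (0.86). Over 15087 genes the same values were 0.95, 0.95 and 0.87. The genes of a column share 1 library or pool, so these values are descriptions.

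**Figure D1:**
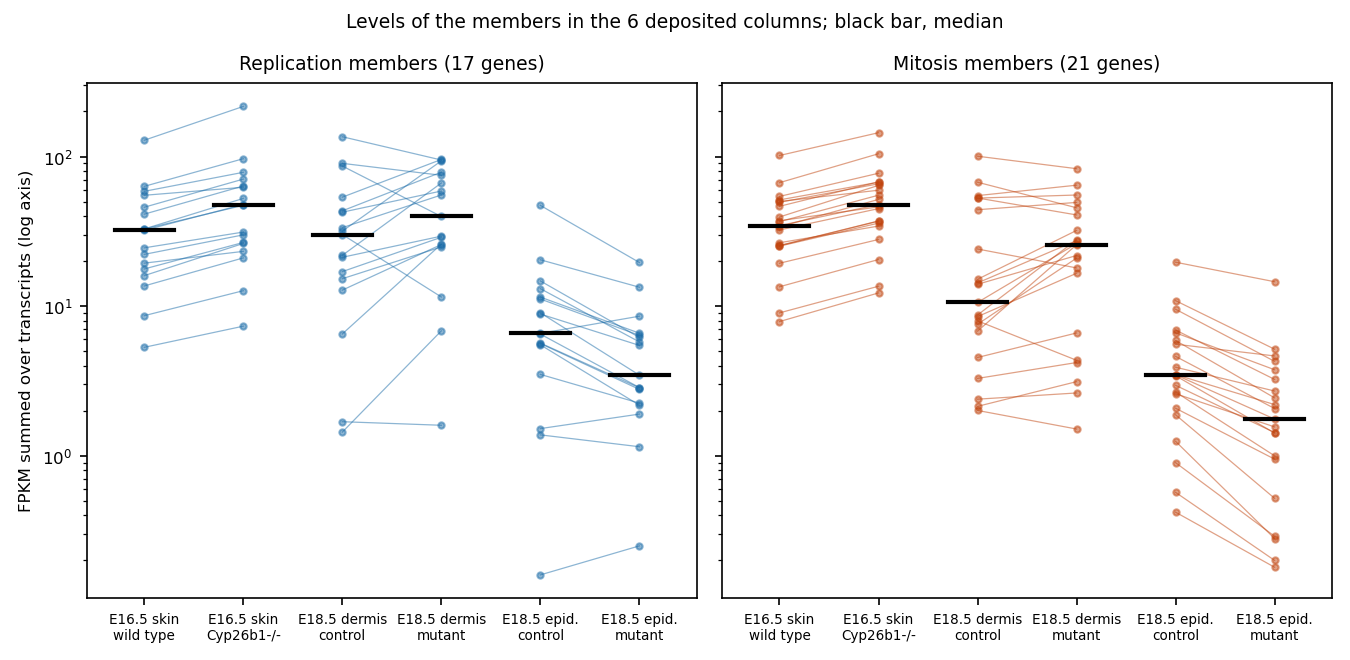
Levels of the 38 genes in FPKM on a log axis for each of the 6 columns of values, with control and mutant side by side for E16.5 skin, E18.5 dermis and E18.5 epidermis and no error bars. Each point is 1 gene, replication genes and mitosis genes are shown apart, and the epidermis columns sit lowest, with medians of 5.54 FPKM in the control and 2.58 FPKM in the mutant over all 38 genes.

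The E16.5 comparison asks how germline loss of Cyp26b1 changed these genes in whole skin. Both groups of genes stayed close to the median gene. The median replication gene was 0.56 higher in the mutant on the raw log2 scale and 0.13 above the median gene, with a range of -0.25 to 0.32 over 16 genes. The median mitosis gene was 0.51 higher raw and 0.08 above the median gene, with a range of -0.18 to 0.26 over 20 genes. Of these 36 genes, 26 lay above the median gene and 10 below. Gins2 and Tpx2 had failed estimates at E16.5 and are not counted; they were listed at 24.5 and 31.3 FPKM (Gins2) and at 33.9 and 51.7 FPKM (Tpx2).

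None of the 36 genes passed the test once the median shift was removed. In this test the deposited Cuffdiff statistic was recomputed relative to the median fold and adjusted by Benjamini-Hochberg for 19608 transcripts, with a threshold of 0.05. Over all 16303 tested genes, it called 8.32% higher and 10.2% lower. At an unadjusted p under 0.05, 4 of the genes had a transcript that was higher and 1 had a transcript that was lower, beside 29.9% of all tested genes with such a transcript in either direction. Without the recentring, the q-values in the authors' deposited table called 32 of the 36 genes higher (14 replication and 18 mitosis genes) and 0 lower, beside 54.6% of all tested genes higher and 3.46% lower. The 4 genes it did not call were Rrm2, E2f1, Aurkb and Cenpa. The smallest recomputed adjusted p over the genes' transcripts was 0.0645, for a minor noncoding transcript of Tyms at 0.83 and 2.13 FPKM.

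Pcna stood furthest above the median gene on the summed scale, whereas by the deposited fold of the main transcript Bub1 did (0.31, with Pcna at 0.28). Pcna lies on chromosome 2 at 132075022 to 132078916 (build mm9) and went from 129 to 216 FPKM, a raw log2 fold of 0.75 and 0.32 relative to the median gene, with a model SE of 0.14 and an adjusted p of 0.165 (recomputed Cuffdiff statistic). Its copy elsewhere in the genome is 99.3% identical.

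Mki67, which encodes the Ki-67 protein that coats mitotic chromosomes, went from 39.5 to 64.2 FPKM and lay 0.26 above the median gene. Ccne1, cyclin E1, went from 16 to 26.3 FPKM, at 0.25. Mcm4, a helicase subunit, went from 32.8 to 52.5 FPKM, at 0.23. These 3 genes lay less than 2 model SEs from the median gene, and none passed the test.

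At the other end, Rrm2, the regulated subunit of ribonucleotide reductase, went from 55.1 to 62.3 FPKM. It was 0.17 higher on the raw scale and -0.25 relative to the median gene, with an adjusted p of 0.127 (recomputed Cuffdiff statistic). Its partner Rrm1 went from 45.8 to 70.7 FPKM and lay 0.19 above the median gene. The level of Rrm2 was 1.20 times that of Rrm1 in wild-type and 0.88 times in mutant skin.

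Cenpa, the centromeric histone, went from 50.1 to 59.6 FPKM (0.25 raw, -0.18 relative). E2f1, the activator of S phase genes, went from 19.4 to 23.2 FPKM (0.25 raw, -0.18 relative). Aurkb, the kinase of the chromosomal passenger complex, went from 37.2 to 46.1 FPKM (0.30 raw, -0.13 relative). Each of these genes and Rrm2 was thus higher in the mutant column as deposited and below the median gene after centring.

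The 6 helicase subunits were near each other, with relative folds from -0.01 for Mcm7 to 0.23 for Mcm4. The licensing factors Cdc6 and Cdt1 lay at -0.02 and -0.01. The spread of relative folds over the 36 genes was 0.13 (SD), about the size of the median model SE of 0.14, beside 0.66 (SD) over all genes. Centred on genes of similar GC content, the E16.5 medians were 0.09 for the replication and 0.01 for the mitosis genes. Spearman's rho of fold with GC content was -0.33 over 13426 genes and -0.43 over the 36 genes.

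Markers of other cells also moved at E16.5. Of the lens markers 18 of 18 lay above the median gene, with sums of 71.0 FPKM in wild-type and 3002 FPKM in mutant skin, and Crybb2 was listed at 0 in wild-type skin. Of the hair markers 19 of 20 lay below, with sums of 213 and 58.2 FPKM, and none was at 0. Of the basal keratinocyte markers 8 of 10 lay below, with sums of 3053 and 3000.01 FPKM, and of the erythroid markers 6 of 7 lay above, with sums of 6505 and 11868 FPKM. The part of these cells in the E16.5 folds was not tested.

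**Figure D2:**
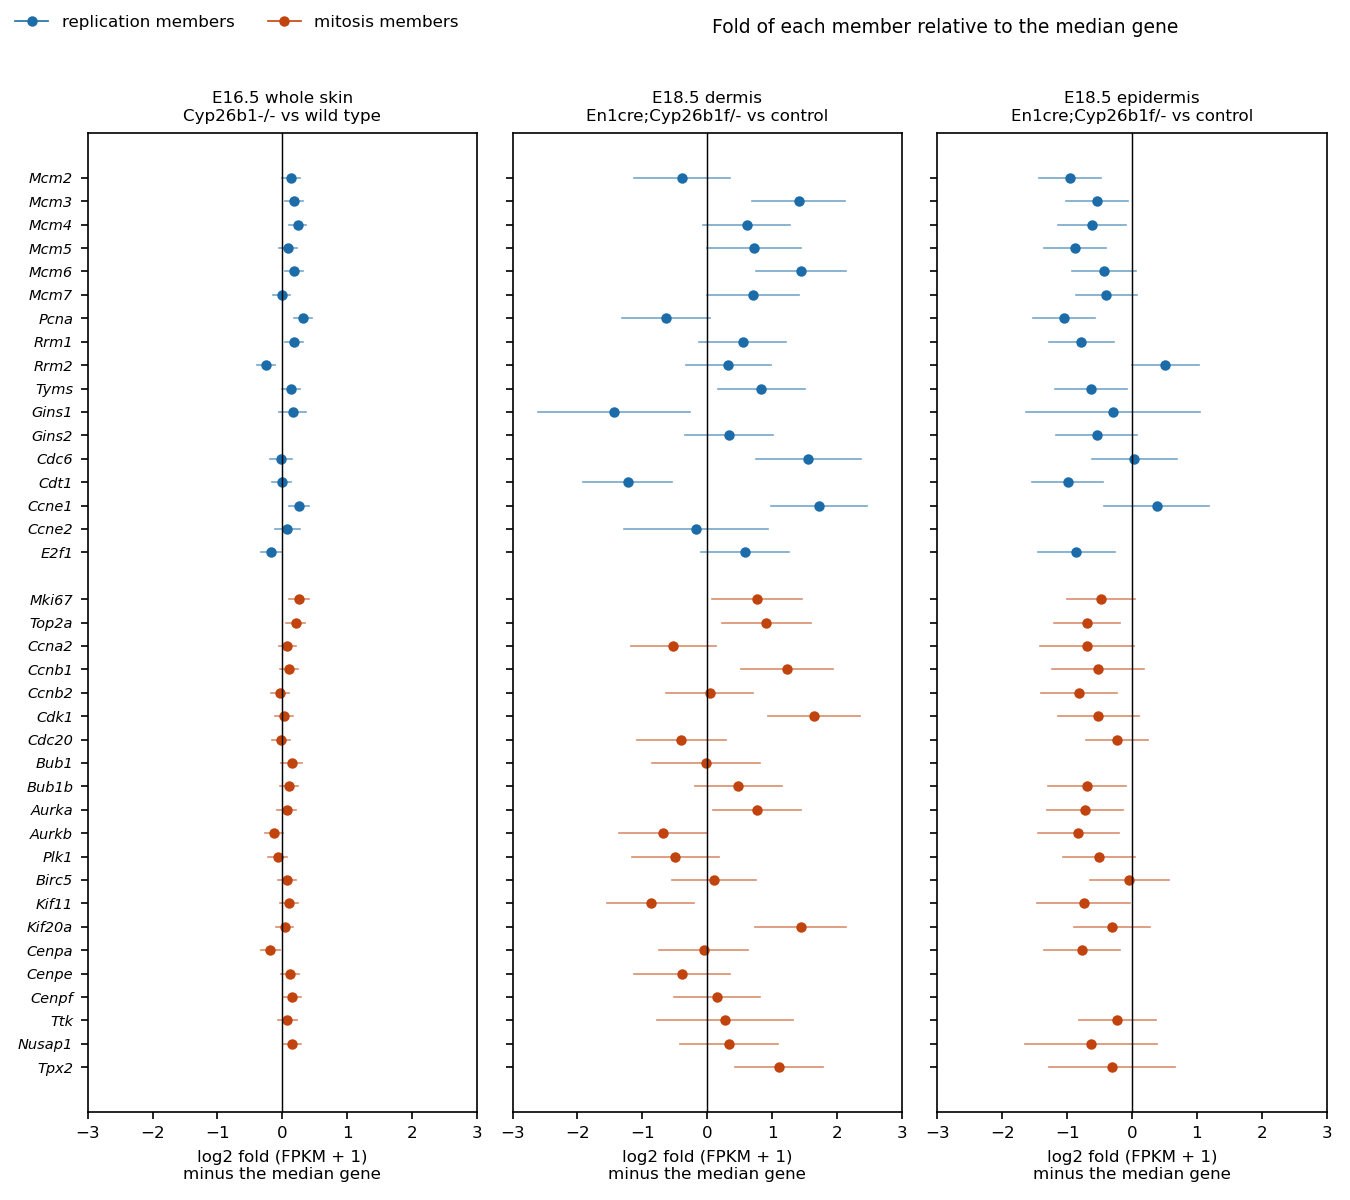
Log2 fold of each gene (mutant over control, FPKM + 1) minus the median gene of its table, for E16.5 skin, E18.5 dermis and E18.5 epidermis, with bars for the model SE of the main transcript. Points are folds of summed FPKM, so the main transcript of a bar can have another fold than its point. The skin points lie between -0.25 and 0.32, the dermis points between -1.44 and 1.72, and 31 of 34 epidermis points lie below 0.

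In E18.5 dermis the genes spread out widely. Of 38 genes, 8 were over 2-fold higher than the median gene in the mutant library and 2 were over 2-fold lower, beside 14% and 13.9% of all genes. At 1.5-fold the counts were 16 higher and 5 lower, beside 26.6% and 26.5% of all genes. The median model SE of the genes was 0.69 on the log2 scale, and no test is possible with 1 library a group.

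The median replication gene was 0.71 higher raw and 0.59 above the median gene, with a range of -1.44 to 1.72. The median mitosis gene was 0.28 higher raw and 0.15 above the median gene, with a range of -0.87 to 1.65. Above the median gene lay 12 of 17 replication and 13 of 21 mitosis genes. The medians of the gene groups thus differed by 0.43 in dermis, by 0.05 in skin and by 0.0019 in epidermis. In dermis genes of low GC content tended to have higher folds (Spearman's rho -0.27 over 12763 genes), and the median transcript GC was 49.2% for the replication and 47.2% for the mitosis genes, beside 51.3% for all genes. Centred on genes of similar GC content, the dermis medians were 0.36 for the replication and 0.09 for the mitosis genes. Over the alternative scalings and gene subsets that difference ran from 0.26 to 0.57 in dermis, from 0.04 to 0.08 in skin and from -0.17 to 0.18 in epidermis.

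Ccne1 showed the highest value in dermis with the pseudocount of 1 FPKM, whereas the plain ratio of mutant to control was larger for Cdc6 (4.75) than for Ccne1 (3.98). Ccne1 lies on chromosome 7 at 38883003 to 38892509 (mm9) and went from 6.52 to 26.0 FPKM, 1.84 raw and 1.72 relative, with a model SE of 0.74. Its paralog Ccne2 stayed low, at 1.69 and 1.6 FPKM.

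Cdk1, the mitotic kinase, went from 6.81 to 25.7 FPKM, 1.78 raw and 1.65 relative. It lies on chromosome 10 at 68799383 to 68815660 (mm9), and it was the only one of 17 mitosis promoters with an E2F string, shown above. Its partner Ccnb1, cyclin B1, went from 7.57 to 20.9 FPKM (1.23 relative). The other partners did not share that size of difference: Ccnb2, cyclin B2, went from 44.1 to 49.4 FPKM (0.04 relative) and Ccna2, cyclin A2, from 24.1 to 18.0 FPKM (-0.52 relative). Cdk1 stood at 0.15 times the level of Ccnb2 in control and 0.52 times in mutant dermis, against 0.67 and 0.71 times in E16.5 skin. Ccnb1 has 4 copies elsewhere in the genome, at up to 99.1% identity.

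The licensing factors lay at opposite ends. Cdc6 went from 1.44 to 6.84 FPKM, 1.68 raw and 1.56 relative, and Cdt1 went from 86.5 to 39.8 FPKM, -1.10 raw and -1.22 relative. Cdt1 lies on chromosome 8 at 125091915 to 125097030 (mm9). The level of Cdt1 was 60.0 times that of Cdc6 in control dermis and 5.81 times in mutant dermis, against 4.18 and 4.08 times in E16.5 skin. Relative to genes of similar GC content, the Cdt1 value in dermis was -0.35.

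Of the helicase subunits, Mcm6 went from 21.9 to 66.5 FPKM (1.44 relative) and Mcm3 from 31.7 to 93.5 FPKM (1.41 relative). Mcm5, Mcm7 and Mcm4 lay at 0.72, 0.70 and 0.61. Mcm2 alone of the 6 lay below the median gene, at 90.05 and 74.9 FPKM (-0.38). The subunits form 1 ring of 6 different proteins, yet Mcm3 stood at 0.35 times the level of Mcm2 in control dermis and at 1.25 times in mutant dermis, against 1.28 and 1.33 times in E16.5 skin.

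Pcna went from 136 to 94.8 FPKM in dermis (-0.64 relative). All 3 genes of nucleotide supply lay above the median gene, with Tyms, thymidylate synthase, at 12.8 and 25.8 FPKM (0.84), Rrm1 at 0.55 and Rrm2 at 0.33. Gins1, a subunit of the helicase-activating GINS complex, had the lowest value, from 30.1 to 11.5 FPKM (-1.31 raw, -1.44 relative). This sum hides a split between its transcripts: 1 stood at 26.8 FPKM in control and 2.27 in mutant dermis, and the other at 3.27 and 9.25 FPKM. The model SE of 1.16 belongs to the first transcript alone, whose own relative log2 fold was -3.715. The second transcript held most of the Gins1 signal at E16.5, with 12.5 and 19.4 FPKM. The first also led in control epidermis, with 2.22 against 1.28 FPKM. Gins2 went from 42.5 to 58.8 FPKM (0.34).

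Among the spindle genes, Kif20a, a kinesin of cytokinesis, went from 8.73 to 27.8 FPKM (1.44 relative), and Tpx2, a spindle assembly factor, from 10.6 to 26.2 FPKM (1.11). The main transcript of Tpx2 went from 9.35 to 14.8 FPKM (0.51 relative by the deposited fold), so Tpx2 passed 2-fold only by its sum. Kif11, the kinesin that separates spindle poles, went the other way, from 7.98 to 4.35 FPKM (-0.87). Nusap1, a microtubule binding protein, lay at 0.34. The 4 spindle genes thus covered most of the range seen in dermis.

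Top2a, topoisomerase II alpha, which untangles sister chromatids, went from 15.1 to 32.1 FPKM (0.91 relative), and Mki67 from 8.51 to 16.6 FPKM (0.76). Aurka, the kinase of spindle poles, went from 14.3 to 27.4 FPKM (0.77), whereas Aurkb went from 67.4 to 45.5 FPKM (-0.68) and the Polo kinase gene Plk1 from 52.9 to 40.7 FPKM (-0.49). Birc5 lay at 0.10. Cdc20, the activator of the anaphase-promoting complex, went from 101 to 83.0 FPKM (-0.40). The checkpoint genes Bub1, Bub1b and Ttk lay at -0.02, 0.48 and 0.27, and the centromere genes Cenpa, Cenpe and Cenpf at -0.06, -0.38 and 0.15. The sum of Ttk hides a split between its transcripts. Its main transcript went from 2.14 to 0.85 FPKM (-1.475 relative by the deposited fold), and the other from 0 to 2.28 FPKM.

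Grouped by promoter letters, the 7 genes with an E2F string had a median of 1.41 in dermis, and the other 23 genes with a known promoter had a median of 0.27. These 7 genes were Mcm3, Mcm5, Mcm6, Mcm7, Cdc6, Cdt1 and Cdk1, so several of them are subunits of the same helicase. Within these 7 genes, Cdt1 was at -1.22. Among the genes without such a string were Ccne1, at 1.72, and Pcna, at -0.64. The part of these strings in the folds was not tested. The 13 genes with TTTGAA had a median of 0.15 and the 17 without it 0.59. In E16.5 skin the corresponding medians were 0.03 and 0.11 for the E2F string, and 0.08 and 0.11 for TTTGAA. In epidermis they were -0.52 and -0.66 for the E2F string (7 and 20 genes) and -0.69 and -0.54 for TTTGAA (12 and 15 genes).

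Markers of other cells moved with the dermis comparison. Of the basal keratinocyte markers 11 of 11 lay below the median gene, and their sum went from 12628.5 to 3906 FPKM, with Krt5 at 6265 and 1806 FPKM. Of the hair markers 20 of 20 lay below, with sums of 2115 and 116 FPKM. Of the skeletal muscle markers 10 of 10 lay above, with sums of 1878 and 5716 FPKM, and of the endothelial markers 7 of 8, with sums of 294 and 404 FPKM. Of the dermal fibroblast markers 8 of 9 lay above, with Dcn at 53.8 and 358 FPKM, while Col1a1, Col1a2 and Col3a1 had failed estimates and are listed at 0 in the mutant. None of the basal, hair, muscle or endothelial markers was at 0 in either dermis column. The part of these cell types in the dermis folds was not tested.

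**Figure D3:**
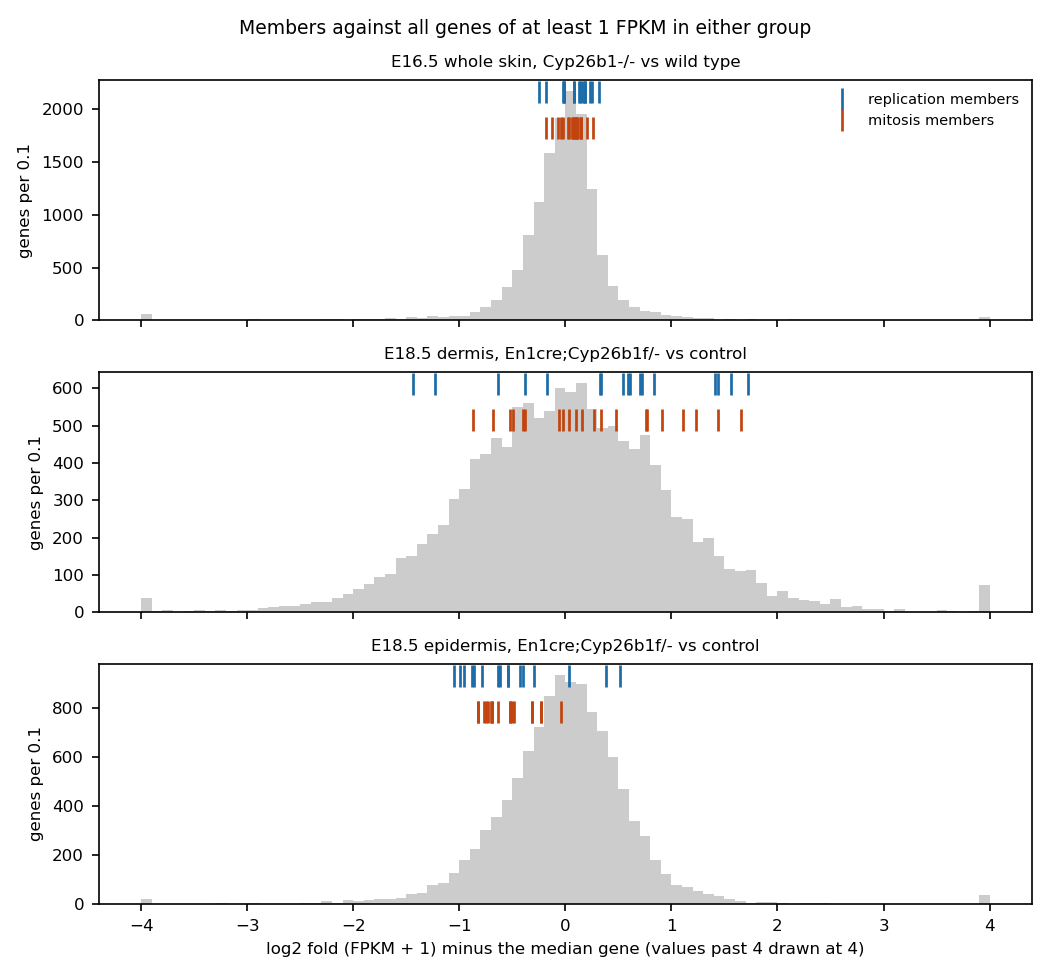
Histograms (grey, number of genes per 0.1) of relative log2 folds of all genes that reached 1 FPKM in a column in each of the 3 comparisons, with ticks for the replication and the mitosis genes and values past 4 drawn at 4. The width differs by table, with the quartiles of all genes at -0.20 and 0.17 in skin, at -0.63 and 0.63 in dermis and at -0.36 and 0.34 in epidermis.

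In E18.5 epidermis nearly all of the genes lay below the median gene in the mutant library. This was so for 31 of the 34 genes with a fold, beside 50% of all genes by construction. The median replication gene was -0.76 raw and -0.58 relative (range -1.05 to 0.51 over 16 genes), and the median mitosis gene was also -0.76 raw and -0.58 relative (range -0.83 to -0.04 over 18 genes). Over 2-fold lower than the median gene was 1 of 34 genes, Pcna, and 0 were over 2-fold higher, beside 4.86% and 3.49% of all genes. At 1.5-fold 17 were lower (8 replication and 9 mitosis genes) and 0 higher, beside 14.8% and 12.1% of all genes. The pseudocount of 1 FPKM weighs on these low levels, and with 0.1 FPKM in its place 9 of 34 genes were over 2-fold lower, beside 12.3% of all genes. By the log2 folds of the main transcripts in the authors' deposited table it was 15 of 37 genes, also taken relative to the median, beside 16.9% of all genes.

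Pcna went from 47.2 to 19.6 FPKM in epidermis, -1.23 raw and -1.05 relative, with a model SE of 0.48. Cdt1 went from 9.03 to 3.46 FPKM (-0.99 relative), Mcm2 from 14.8 to 6.18 FPKM (-0.95) and Mcm5 from 13.1 to 5.77 FPKM (-0.88). All 6 helicase subunits lay below the median gene, from -0.95 for Mcm2 to -0.40 for Mcm7. The helicase subunits and the clamp thus moved in the same direction in this pair of libraries.

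Of the other replication genes in epidermis, Gins1 and Gins2 lay at -0.29 and -0.54, Rrm1 at -0.78, Tyms at -0.63 and E2f1 at -0.86, with E2f1 at 5.52 and 2.18 FPKM. Rrm2, Ccne1 and Cdc6 were the only genes of the 34 above the median gene. Rrm2 went from 6.58 to 8.57 FPKM (0.34 raw, 0.51 relative), so that its level was 1.01 times that of Rrm1 in control and 3.0 times in mutant epidermis. Ccne1 went from 1.52 to 1.9 FPKM (0.38 relative, model SE 0.81). Cdc6, at 1.38 and 1.15 FPKM, was lower raw (-0.15) and level with the median gene (0.03), and its sign changed with the scaling.

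Each of the 18 mitosis genes with a fold lay below the median gene. Aurkb went from 5.9 to 2.44 FPKM (-0.83 relative) and Ccnb2 from 9.54 to 4.28 FPKM (-0.82). Cenpa went from 10.9 to 5.16 FPKM (-0.77), Kif11 from 1.88 to 0.52 FPKM (-0.74) and Aurka from 6.93 to 3.24 FPKM (-0.72). Nusap1 went from 1.25 to 0.28 FPKM (-0.64) and Tpx2 from 2.6 to 1.56 FPKM (-0.31). At such low levels the pseudocount matters: by the deposited fold of the main transcript relative to the median, Tpx2, Nusap1 and Kif11 were lowest, at -3.36, -2.09 and -1.63. Top2a went from 4.62 to 2.07 FPKM (-0.69) and Mki67 from 2.08 to 0.95 FPKM (-0.48). Nearest to the median gene was Birc5, at 5.57 and 4.65 FPKM (-0.04), followed by Cdc20 and Ttk at -0.23 each. Cdc20, with the CHR and CCAAT promoter shown above, was the mitosis gene with the highest level in control epidermis, at 19.7 FPKM. By the deposited log2 fold of its main transcript Birc5 lay above the median, at 0.21.

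The relative folds of the 34 genes spread less (SD 0.36) than those of all genes (SD 0.75). The median model SE of 0.59 belongs to the deposited folds of the main transcripts, which have no pseudocount. It therefore cannot be set against this spread at such low levels. In the same libraries 11 of 11 basal keratinocyte markers lay below the median gene, with sums of 5781 and 1886 FPKM and Krt5 at 2634 and 704 FPKM, and none was at 0. Of the hair markers 17 of 19 lay below, with sums of 245 and 105 FPKM, and of the dermal fibroblast markers 9 of 9, with sums of 363 and 69.6 FPKM. The part of these cells in the epidermis folds was not tested.

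The folds of both tissues of the E18.5 mutant were also set side by side. Of the 34 genes with both folds, 21 lay above the median gene in dermis and below it in epidermis, 10 lay below it in both, 3 lay above it in both (Rrm2, Ccne1 and Cdc6), and 0 lay below it in dermis and above it in epidermis. Mcm5, for example, went from 43.4 to 78.6 FPKM in dermis (0.72 relative) and from 13.1 to 5.77 FPKM in epidermis (-0.88). Top2a lay at 0.91 in dermis and -0.69 in epidermis, E2f1 at 0.59 and -0.86, and Tyms at 0.84 and -0.63. Pcna, Cdt1 and Mcm2, the 3 lowest genes in epidermis with the pseudocount of 1 FPKM, were also below the median gene in dermis. With 31 of the 34 genes below the median gene in epidermis, most genes above it in dermis had to be among those 21. These counts use folds of summed FPKM, and Ttk, for example, was above in dermis by its sum but not by its main transcript. The shares of all genes that lay above or below in each tissue pair were not computed. The difference between tissues was not tested, since each rests on 1 library a group.

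**Figure D4:**
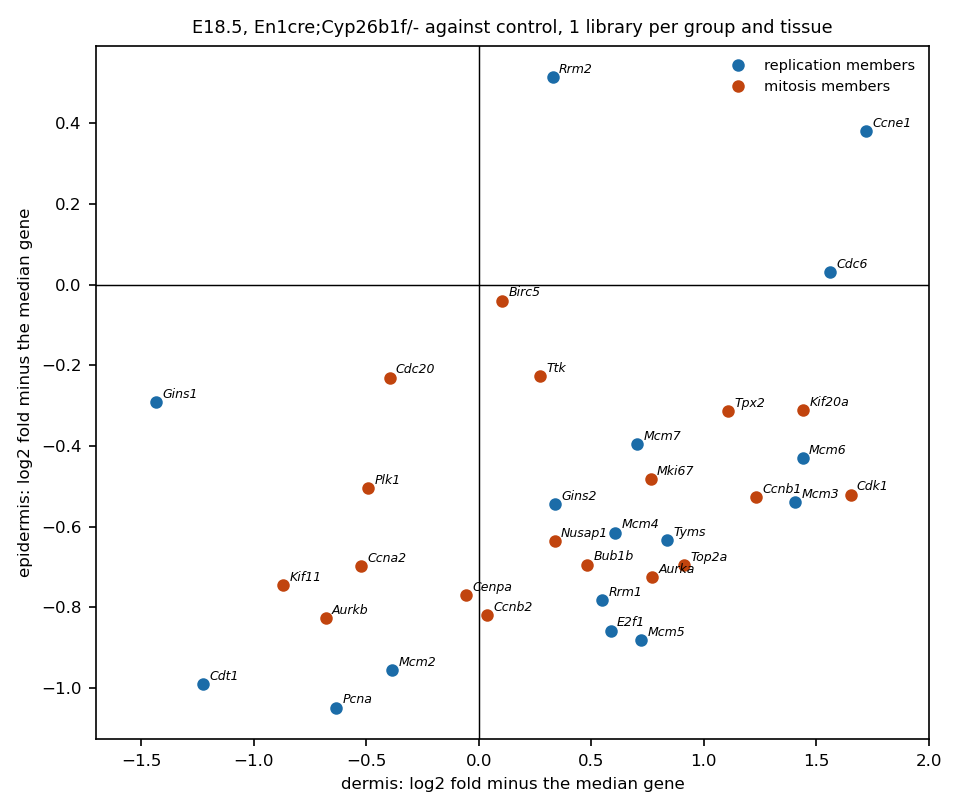
Relative log2 fold of each of the 34 genes in E18.5 dermis (horizontal axis) against E18.5 epidermis (vertical axis), replication and mitosis genes in separate colours. The lower right of the plot holds 21 genes, the lower left 10 and the upper right 3 (Rrm2, Ccne1 and Cdc6). The shares of all genes in these parts of the plot were not computed.

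Further genes of the pathway were summarised from 4 lists, whose counts are to be read beside those of all genes. Calls at E16.5 rest on single transcripts, whereas the FPKM and folds given are summed over the transcripts of a gene. A called transcript can therefore differ from the sum. At E16.5 the recomputed test called 8.32% of all genes higher and 10.2% lower, and the authors' deposited q-values 54.6% and 3.46%. In dermis 14% of all genes were over 2-fold higher and 13.9% over 2-fold lower, and in epidermis 50% lay below the median gene. Of 47 other replication genes tested at E16.5, 2 rose and 0 fell in the recomputed Cuffdiff test: Rpa1, a subunit of the single-strand binding protein, from 30.9 to 59.1 FPKM (0.48 relative), and Hells, a chromatin remodeller, from 11.1 to 21.1 FPKM (0.44). The authors' deposited q-values called 46 of them higher and 0 lower. Their median relative fold was 0.15 in skin, 0.36 in dermis and -0.35 in epidermis. In dermis 6 of 48 were over 2-fold higher, near the share of all genes, and 1 over 2-fold lower, with Cdc45, a part of the active helicase, at 6.95 and 26.6 FPKM (1.67), the polymerase subunit Pold3 at 3.95 and 16.5 FPKM (1.70) and Hells at 6.09 and 1.46 FPKM (-1.65). In epidermis 40 of 42 lay below the median gene, with Orc4, an origin recognition subunit, at 4.49 and 0.76 FPKM (-1.46).

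Of 51 other mitosis genes tested at E16.5, 1 rose and 2 fell, and the authors' deposited q-values called 46 higher and 0 lower. The kinesin Kif15 rose from 12.7 to 22.8 FPKM (0.37 relative). Cdc25b, a phosphatase that activates Cdk1, went from 22.4 to 25.6 FPKM (-0.24 relative) and Troap from 10.4 to 12.8 FPKM (-0.16). The sums of both were lower only relative to the median gene, and their called transcripts are not shown. Their median relative fold was 0.07 in skin, 0.12 in dermis and -0.40 in epidermis. In dermis 6 of 51 were over 2-fold higher and 5 over 2-fold lower, near or below the shares of all genes, with Pttg1, securin, at 8.16 and 50.2 FPKM (2.36) and the condensin subunits Smc4 at 17.01 and 4.16 FPKM (-1.93) and Ncapg at 6.6 and 1.52 FPKM (-1.72). In epidermis 36 of 38 lay below the median gene, with Cks2, a Cdk-binding protein, at 10.4 and 2.85 FPKM (-1.39).

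Of 27 G1 cyclins, kinases and transcription regulators tested at E16.5, 2 rose and 3 fell, shares near those of all genes, and the authors' deposited q-values called 21 higher and 0 lower. Myc, which drives growth, rose from 39.3 to 66.1 FPKM (0.31 relative) and Rbl1, the pocket protein p107, from 10.6 to 17.6 FPKM (0.26). Lin9, a subunit of the complexes that bind CHR elements, fell from 13.2 to 11.1 FPKM (-0.65), and E2f2 fell from 10.6 to 10.2 FPKM (-0.48). Ccnd3, cyclin D3, was also called lower by a transcript. Its sum went from 171 to 207 FPKM and was lower only relative to the median gene (-0.16). In dermis Mycn went from 83.7 to 18.4 FPKM (-2.25) and Tfdp1, the partner of E2F proteins, from 33.9 to 122 FPKM (1.69). In epidermis cyclin D1 (Ccnd1) stood at 14.8 and 4.07 FPKM (-1.47), and cyclin D2 (Ccnd2) at 12.6 and 3.25 FPKM (-1.50).

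Of 20 cell cycle inhibitors tested at E16.5, 0 rose and 5 fell relative to the median gene, whereas the authors' deposited q-values, which are not centred, called 7 higher and 1 lower. Gadd45b, a stress response gene, fell from 27.0 to 19.7 FPKM (-0.86 relative), Btg2 from 18.1 to 15.7 FPKM (-0.62) and Cdkn2b, the Cdk4 and Cdk6 inhibitor p15, from 11.5 to 10 FPKM (-0.61). Tob1 and Cdkn1a, the inhibitor p21, were called lower at -0.38 each, though their raw folds were 0.04 and 0.05. The list's median relative fold was -0.20 in skin, -0.92 in dermis and -0.05 in epidermis. In dermis 10 of 20 were over 2-fold lower and 0 over 2-fold higher, beside 13.9% and 14% of all genes, with Cdkn2b at 8.13 and 0.94 FPKM (-2.36) and Gadd45g at 233 and 80.7 FPKM (-1.64). In epidermis 1 of 19 was over 2-fold lower, beside 4.86% of all genes: Trp53inp1, a p53 target gene, from 5.48 to 1.52 FPKM (-1.18). Gadd45g went from 26.5 to 11.3 FPKM (-0.99), and Cdkn1a, at the other end, from 249 to 329 FPKM (0.58). In the same dermis libraries the hair markers summed to 2115 and 116 FPKM and the basal keratinocyte markers to 12628.5 and 3906 FPKM, whose part in this was not tested.

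**Figure D5:**
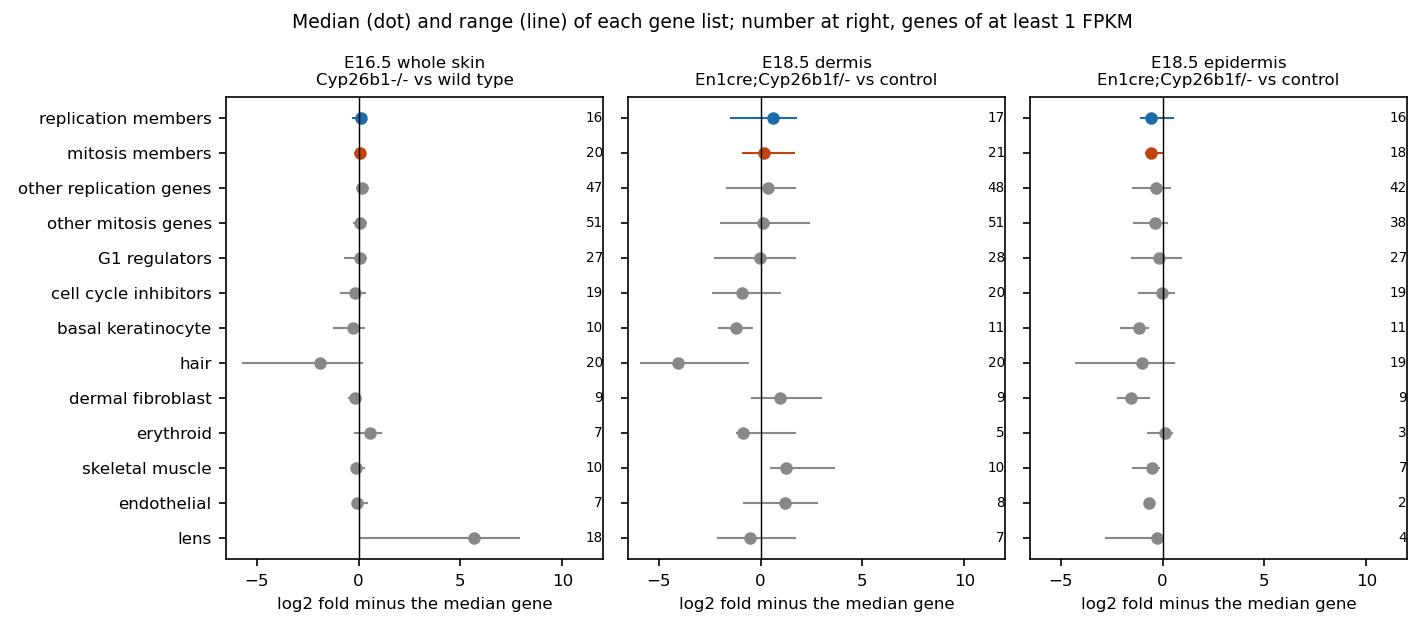
Median and range of relative log2 folds for the replication genes, the mitosis genes, the 4 other cell cycle lists and the 7 marker lists in each comparison, with the number of genes of each list at or above 1 FPKM at the right. The cell cycle inhibitors have a median of -0.92 in dermis, where the replication genes have 0.59, and the lens markers at 5.66 in skin lie far from every cell cycle list.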

How the data were processed

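Per the labels' protocols, Trizol was used for RNA and a TruSeq kit for the libraries. The submitters' processing notes name Cuffdiff 1.3.0, Cufflinks, TopHat 1.3.2 and Bowtie 0.12.7.0, and mouse build mm9. The annotation used and any strand setting are not given in those sources. The 3 tables deposited by the authors hold, per the file headers, an FPKM value for the control and the mutant group of each of 27641 transcripts, a log2 fold, a test statistic (a score) and a p-value and q-value, all by the authors. Both E16.5 libraries of a group share 1 FPKM column.

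FPKM were summed per symbol, and a fold is log2 of the ratio of (FPKM + 1), a pseudocount of 1 that understates the change of low genes, for genes that reached 1 FPKM in a column and had no failed estimate. The median fold of those genes was subtracted. At E16.5, as there are no counts, the deposited Cuffdiff statistic was recomputed after subtracting the median deposited log2 fold of 0.474. The SE was the size of the fold divided by that of the statistic, as their signs were opposite. For a statistic under 0.1 in size, the median SE of transcripts of similar level was used. The p was two-sided normal, and Benjamini-Hochberg adjustment ran over 19608 transcripts at 0.05. Transcripts at 0 FPKM in 1 group entered the adjustment with the authors' p. A gene counted as called if it had a called transcript in 1 direction only, and a transcript at 0 FPKM in 1 group kept the authors' call. At E18.5 genes were counted past 2-fold and 1.5-fold with no test.

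Copies were sought by aligning transcripts to mm9 with minimap2 2.31 (at least 50% covered at 90% identity): 6 genes had a copy elsewhere (Mcm7, Pcna, Cdc6, Ccnb1, Cdc20 and Plk1), 2 overlapped an exon on the same strand (Mcm7 and Top2a), 8 overlapped one on the opposite strand, and 25 had none of these. Python 3.11.15, pandas 2.3.3, numpy 2.4.6, scipy 1.17.1 and matplotlib 3.10.9 were used. The genes, lists, tests and alternatives were chosen with earlier results of these data known. Full values are given for the 4 highest and 4 lowest genes in each comparison and, of each other cell cycle list, for the genes called at E16.5 and up to 3 with the largest fold. Centring on genes of similar level or GC content used 10 equal bins. Further genes of the 38 are named by their role. Alternatives were another pseudocount, filter, centring, fold threshold and the authors' own values, and, added after seeing the data, failed estimates kept, genes with 1 transcript, and genes without copies or overlaps.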

Additional observations from a re-analysis of the deposited data

Results flagged for a closer look

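Some values had opposite signs in E18.5 dermis and epidermis of the En1cre;Cyp26b1f/- mutant: the medians of both gene groups, and those single genes that lay at least 1.5-fold from the median gene in each tissue. The difference between tissues was not tested, since each value rests on 1 library a group. The median relative log2 fold of the replication genes was 0.59 in dermis and -0.58 in epidermis, and that of the mitosis genes was 0.15 and -0.58. Mcm4 lay at 0.61 and -0.61, Mcm5 at 0.72 and -0.88, and Tyms at 0.84 and -0.63. E2f1 lay at 0.59 and -0.86, Top2a at 0.91 and -0.69, and Aurka at 0.77 and -0.72.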

How the results depend on the processing

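No paired analysis was possible because the E16.5 columns pool both libraries of a group and E18.5 has 1 library a group, and for the same reason leaving out a replicate could not be run. The E16.5 medians of the replication and mitosis genes were 0.31 and 0.25 with no filter on low values and 0.56 and 0.51 with no centring. They were lower, at 0.09 and 0.01, when centred on genes of similar GC content, and positive under every alternative run. With the authors' q-values, 32 genes were called higher at E16.5. In dermis, the count over 2-fold higher (8) was 16 at 1.5-fold, and 5 over genes with 1 transcript (28 genes) and over genes without copies or overlapping exons (25 genes), where fewer genes are counted. The count over 2-fold lower (2) was 5 at 1.5-fold and 4 by the deposited log2 fold, which gave 7 higher. It was 1 when centred on genes of similar level, 1 when centred on genes of similar GC content, and 1 over genes with 1 transcript. The dermis median ran from 0.36 to 0.70 for replication and from 0 to 0.33 for mitosis genes with centring, the cause of which was not tested. In epidermis, the count over 2-fold lower (1) was 9 with a pseudocount of 0.1, 5 with no filter, 3 of 20 with a filter of 5 FPKM, 6 with no centring, 2 centred by GC content, 15 by the deposited log2 fold, 17 at 1.5-fold and 0 of 22 without copies or overlaps (which removes Pcna). Below the median gene were 19 of 20 with the 5 FPKM filter and 20 of 22 without copies or overlaps. The epidermis median ran from -0.86 to -0.56 for replication and from -0.92 to -0.38 for mitosis genes with centring. Single genes were followed through the alternatives only if among the 4 highest or 4 lowest of a comparison. Of these, signs changed for Cdc6 and Birc5 in epidermis, near the median gene. At E16.5 signs changed for Rrm2, Cenpa, E2f1 and Aurkb with no centring (0.17, 0.25, 0.25 and 0.30), and for Aurkb also with no filter (0.05). Signs of other genes could change too. By the deposited log2 fold of the main transcript, Ttk and Birc5 lay at -1.475 and -0.04 in dermis, beside 0.27 and 0.10 by their sums. With unknown depth, no limit on low genes could be set.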
